A study of Mus musculus with 36 samples.

Results

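The genes described here encode the subunits of the translation initiation factors eIF2 and eIF2B. Members were taken by name: Eif2s1, Eif2s2 and Eif2s3x for the alpha, beta and gamma subunits of eIF2, and Eif2b1, Eif2b2, Eif2b3, Eif2b4 and Eif2b5 for the alpha, beta, gamma, delta and epsilon subunits of eIF2B. All 8 were found among 36856 gene symbols, and all 8 were among the 16065 genes that passed the filter on low counts.

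eIF2 binds GTP and the initiator methionyl-tRNA and brings the tRNA to the small ribosomal subunit. eIF2B is the exchange factor that reloads eIF2 with GTP after each round of initiation, with a catalytic part built from its gamma and epsilon subunits and a regulatory part built from its alpha, beta and delta subunits. Kinases that phosphorylate the alpha subunit of eIF2 turn it into an inhibitor of eIF2B, which lowers general initiation and starts the integrated stress response (ISR).

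Transcripts were counted in 36 RNA-seq libraries of fibroblasts grown from mouse embryos, in 12 groups of 3 libraries. Cells were wild type (WT) or PERK -/-, that is, without the eIF2 alpha kinase PERK that responds to stress of the endoplasmic reticulum. Each genotype received DMSO (the solvent), thapsigargin (Tg), BtdCPU, halofuginone, BtdCPU with Tg, or halofuginone with Tg. Thapsigargin blocks the calcium pump of the endoplasmic reticulum, BtdCPU activates the eIF2 alpha kinase HRI, and halofuginone inhibits prolyl-tRNA synthetase and so activates the kinase GCN2. Doses, times, the number of cell lines per genotype and whether replicates were separate cultures are not given in the sources used here, so p-values measure only the spread between these libraries.

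Library totals ran from 32454257 to 37178107 counts, and values are given as CPM, counts scaled to a common library size, with library sizes adjusted by TMM. Of 10 fibroblast markers, 9 had a mean of at least 10 CPM. Lum was the exception, with a mean of 2.13 CPM. Fibroblast markers summed to 13370 to 39000 CPM, while summed levels reached at most 22.9 CPM for 4 leukocyte markers, 23.5 CPM for 4 epithelial markers, 5.06 CPM for 3 endothelial markers and 1.28 CPM for 2 pluripotency markers. Eif2ak3, the gene of PERK, was read at 7.66 to 35.4 CPM in PERK -/- libraries and at 16.4 to 110 CPM in WT libraries, and was lower in every PERK -/- library than in every WT library of the same treatment. Which exons are deleted is not given in the sources used here. In bulk libraries fewer cells of a type and less RNA per cell cannot be told apart.

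Some libraries stood apart from the others of their group, with the largest values in WT cells. By a chi-square over genes, BtdCPU replicate 2 differed from replicates 1 and 3 by 88.5 and 116 per degree of freedom, while those differed from each other by 17.5. The same held for replicate 3 of WT halofuginone (71.8 and 77.8, against 14.2), of WT halofuginone with thapsigargin (52.3 and 75.3, against 18.9) and of WT thapsigargin (51.0 and 51.7, against 15.9). Without each of these in turn, the number of members called went from 2 to 2 for WT BtdCPU, from 7 to 6 for WT halofuginone, from 2 to 2 for WT halofuginone with thapsigargin over thapsigargin, and from 3 to 2 for WT thapsigargin. With all libraries, 22.2%, 68.2%, 45.3% and 47.6% of all tested genes passed in these comparisons, in that order. The shares with a library left out are not given here. A change particular to the members can therefore not be told from a general change in calls. The calls that changed are given with each comparison.

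The genotypes also differed in their sex chromosomes. In the 18 WT libraries the Y-linked genes Eif2s3y, Ddx3y, Kdm5d and Uty were read at 57.7 to 114, 88.1 to 347, 30.3 to 88.1 and 27.2 to 62.0 CPM, in that order, while Xist, the RNA of the inactive X chromosome, had at most 14 counts. In the 18 PERK -/- libraries each of these Y-linked genes had at most 7 counts, and Xist was read at 400.5 to 673 CPM. Genotype therefore cannot be told apart from the other differences between these cells, among them the sex chromosomes. This touches Eif2s3x most directly, since Eif2s3y is its Y-linked copy.

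The sequences below are the 250 bases before the start of the genes whose profiles the results turn on, from the RefSeq table of GRCm38.p6 and read 5′ to 3′ on the strand of the gene. The submitters' processing notes name another build, GRCm39, so the positions hold for GRCm38.p6 only. Eif2s2 is shown as a gene called higher in 6 and lower in 1 of 10 treatment comparisons (as was Eif2b3). Eif2b2 and Eif2b4 are shown as the pair called lower with halofuginone in both genotypes. Eif2s3x and Eif2s3y are shown as the X-linked and Y-linked copies. Capitals mark a match to TGATGNAA, the core of the element bound by C/EBP and ATF4 proteins, searched on both strands.
Eif2s2 promoter (chr2:154892907-154893156, minus strand): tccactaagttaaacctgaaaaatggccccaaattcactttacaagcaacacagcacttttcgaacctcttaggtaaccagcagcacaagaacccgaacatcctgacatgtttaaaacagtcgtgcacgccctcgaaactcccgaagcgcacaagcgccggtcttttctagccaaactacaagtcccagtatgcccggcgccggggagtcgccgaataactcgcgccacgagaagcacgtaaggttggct
Eif2s3x promoter (chrX:94212652-94212901, minus strand): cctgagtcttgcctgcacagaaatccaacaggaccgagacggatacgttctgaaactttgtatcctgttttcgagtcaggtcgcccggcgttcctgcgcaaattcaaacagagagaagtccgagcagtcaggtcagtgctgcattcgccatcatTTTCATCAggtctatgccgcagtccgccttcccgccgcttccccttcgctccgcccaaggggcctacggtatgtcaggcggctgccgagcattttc
Eif2s3y promoter (chrY:1010345-1010594, plus strand): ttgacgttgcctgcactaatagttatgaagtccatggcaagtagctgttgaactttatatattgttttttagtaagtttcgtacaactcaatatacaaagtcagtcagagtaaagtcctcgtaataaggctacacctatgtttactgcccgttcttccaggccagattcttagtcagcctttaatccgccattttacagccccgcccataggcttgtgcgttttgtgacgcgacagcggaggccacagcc
Eif2b2 promoter (chr12:85219231-85219480, plus strand): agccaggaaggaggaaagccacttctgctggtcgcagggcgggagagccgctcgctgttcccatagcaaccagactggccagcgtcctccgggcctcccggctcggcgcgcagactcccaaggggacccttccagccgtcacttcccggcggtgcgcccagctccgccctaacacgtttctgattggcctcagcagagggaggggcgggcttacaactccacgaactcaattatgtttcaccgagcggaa
Eif2b4 promoter (chr5:31193140-31193389, minus strand): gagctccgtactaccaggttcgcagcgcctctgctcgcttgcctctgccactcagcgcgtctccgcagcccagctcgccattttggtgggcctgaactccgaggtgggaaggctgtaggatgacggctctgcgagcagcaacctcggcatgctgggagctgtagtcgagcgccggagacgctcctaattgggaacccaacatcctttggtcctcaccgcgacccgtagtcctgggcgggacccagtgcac
TGATGNAA was found in the promoter of Eif2s3x, on the strand opposite to the gene and 96 bases before the start. Within these 250 bases it had no match in Eif2s1, Eif2s2, Eif2b1, Eif2b2, Eif2b4, Eif2b5 or Eif2s3y. Of 14283 promoters of tested genes, 2.26% held a match, as did 3.45% of all 32851 promoters in the table. A match is only a run of letters and shows no binding. Eif2b3 has no entry in the table.

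Levels of the subunit transcripts were compared first across groups. Exon lengths were the merged exons of all protein-coding transcripts of a gene in GENCODE for GRCm38, and the order of genes depends on this choice. Per kilobase of exon, Eif2b5 had the highest level of the members in WT DMSO libraries, at 73.1 ± 7.09 CPM per kilobase (SD, n = 3). Eif2s3x, the X-linked copy of the gamma gene, had the lowest, at 6.54 ± 0.534. Eif2b2 (49.9 ± 2.46) and Eif2s1 (49.5 ± 2.69) lay next below Eif2b5 and within 1 SD of each other. Eif2s2 (31.6 ± 2.66), Eif2b1 (24.5 ± 3.41), Eif2b4 (21.4 ± 0.739) and Eif2b3 (15.9 ± 0.484) followed. The exchange factor's catalytic epsilon transcript was thus read at a higher level per length than its gamma partner. The Y-linked copy Eif2s3y, not a member, stood at 44.9 ± 12.2 CPM per kilobase in the same WT DMSO libraries. The low value of Eif2s3x there therefore does not give the level of both copies. In PERK -/- DMSO libraries Eif2s3x stood at 18.2 ± 0.898, near Eif2b3 at 18.1 ± 2.23.

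The spread of a gene over the 12 groups differed between members. The highest group mean was 4.04 times the lowest for Eif2s3x, 3.51 times for Eif2b4, 3.35 times for Eif2b3, 2.66 times for Eif2s1 and 2.34 times for Eif2s2. Eif2b2 and Eif2b1 varied by 1.80 and 1.62 times, and Eif2b5 by 1.31 times. PERK -/- cells in thapsigargin were the lowest group for Eif2s1, Eif2s2, Eif2b1, Eif2b3 and Eif2b5. WT cells in halofuginone were the lowest group for Eif2s3x and Eif2b4, and PERK -/- cells in halofuginone with thapsigargin the lowest for Eif2b2. The coefficient of variation within a group, as the median over 12 groups, was lowest for Eif2b4, at 5.04%, and the largest single value was 21.7%, for Eif2b3 in WT halofuginone.

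**Figure D1:**
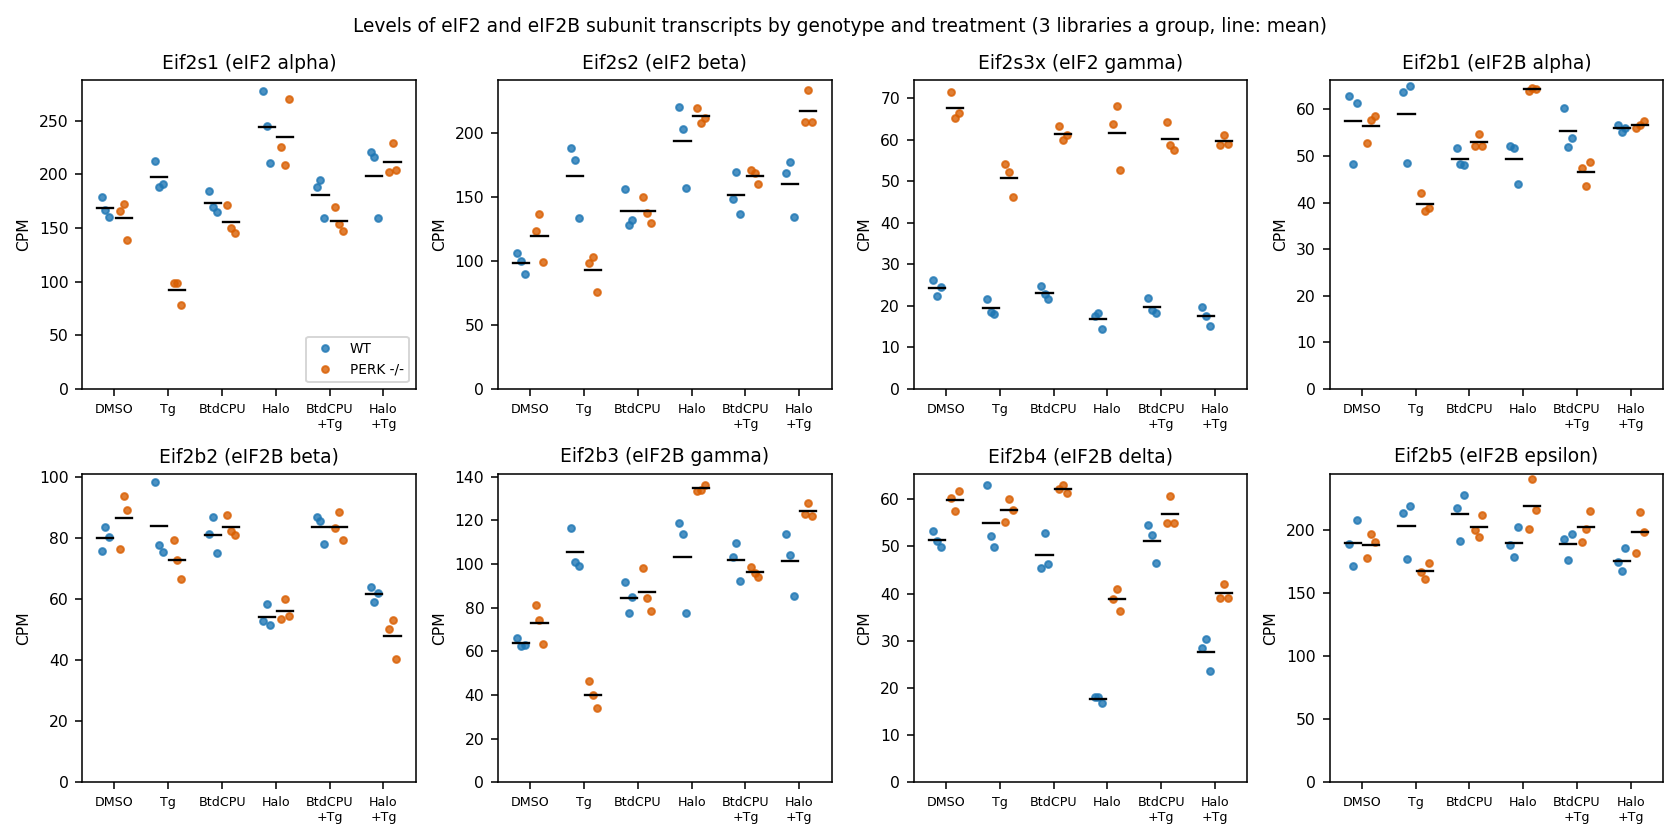
Level of each subunit transcript in CPM (vertical axis, from 0) in the 6 treatments (horizontal axis), with 1 point per library, blue for WT and orange for PERK -/-, and a line at each group mean. Eif2s1 and Eif2b3 drop in PERK -/- thapsigargin (means of 92.0 and 40.1 CPM), Eif2b4 is lowest in WT halofuginone (17.7 CPM), Eif2s3x separates the genotypes in every treatment, and Eif2b5 stays between 167 and 219 CPM.

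Neighbours in the order of levels often overlapped. For Eif2s1 the library ranges of neighbouring groups overlapped all the way down from WT halofuginone (mean of 244 CPM) to PERK -/- BtdCPU (156 CPM), and only PERK -/- thapsigargin stood apart. Eif2b3 had a similar order at its lower end, with PERK -/- thapsigargin apart from WT DMSO (63.9 CPM), and at its upper end PERK -/- halofuginone (135 CPM) and PERK -/- halofuginone with thapsigargin (124 CPM) were separate groups. For Eif2b4 the 4 groups that received halofuginone, at 17.7, 27.5, 38.8 and 40.1 CPM, formed the lower end, and no library of them reached any library of the other 8 groups. For Eif2b2 the same 4 groups were lowest, at 48.0 to 61.9 CPM, below every library of the other groups.

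Thapsigargin against DMSO showed how the subunits moved in stress of the endoplasmic reticulum, with and without PERK. Eif2s2 and Eif2b3 rose in WT cells and fell in PERK -/- cells, Eif2s1 and Eif2b1 fell in PERK -/- cells, and Eif2b4 did not pass the test in either. In WT cells 3 of 8 members passed, 2 higher and 1 lower, where 47.6% of all tested genes passed. Of the 8, 5 passed in PERK -/- cells, all lower, where 27.9% of all tested genes passed. The median log2 fold change of the 8 members was 0.10 in WT and -0.39 in PERK -/- cells, beside 0.02 and 0.05 over all tested genes.

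Eif2s1, the subunit that the kinases phosphorylate, stood at 178, 167 and 160 CPM in WT DMSO libraries and at 212, 188 and 191 CPM in WT thapsigargin libraries. The groups did not overlap, and the log2 fold change of 0.22 (SE 0.123) had an edgeR adjusted p of 0.135. It passed in the fit with the replicate number as a block (0.23, SE 0.0947, adjusted p 0.0422). Same-numbered libraries did not all deviate together in this comparison (lowest correlation 0.041), so that block has no clear ground here. The PERK -/- libraries went from 166, 173 and 138 CPM to 98.8, 98.9 and 78.3 CPM. Every thapsigargin library lay below every DMSO library, and Eif2s1 fell by 0.79 (SE 0.124, adjusted p 9.73e-06) on the log2 scale.

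Eif2s2, the beta subunit, which contacts the factors eIF5 and eIF2B, was read at 106, 99.98 and 89.7 CPM in WT DMSO and at 188, 178 and 133 CPM in WT thapsigargin. All 3 treated libraries were higher, by 0.75 (SE 0.138, adjusted p 3.51e-05) on the log2 scale. The PERK -/- libraries stood at 123, 137 and 98.8 CPM in DMSO and at 98.5, 103 and 75.8 CPM in thapsigargin. These groups overlapped, and Eif2s2 fell by 0.37 (SE 0.137, adjusted p 0.0428).

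Eif2b3, the gamma subunit of eIF2B, was at 66.1, 62.5 and 63.0 CPM in WT DMSO and at 116, 101 and 99.0 CPM in WT thapsigargin. Its PERK -/- libraries went from 81.1, 74.2 and 63.3 CPM to 46.2, 40.2 and 33.9 CPM. Neither pair of groups overlapped, and they moved in opposite directions. Eif2b3 rose by 0.72 (SE 0.128, adjusted p 2.31e-05) in WT cells and fell by 0.86 (SE 0.129, adjusted p 4.5e-06) in PERK -/- cells.

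Among the other members, Eif2s3x fell by 0.32 (SE 0.109, adjusted p 0.0151) in WT cells and by 0.41 (SE 0.106, adjusted p 0.00352) in PERK -/- cells. Eif2b1, the eIF2B subunit that binds phosphorylated eIF2 alpha together with beta and delta, stood at 52.9, 57.7 and 58.6 CPM in PERK -/- DMSO and at 42.1, 38.3 and 39.0 CPM in PERK -/- thapsigargin. That fall was 0.50 (SE 0.0981, adjusted p 0.000176), while its WT value was 0.04 (SE 0.0976). Eif2b2 had 0.07 in WT and -0.25 in PERK -/- cells, Eif2b4 0.10 and -0.05, and Eif2b5 0.10 and -0.17, none of which passed. For Eif2b4, the delta subunit, the PERK -/- interval of the log2 difference ran from -0.24 to 0.13.

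The fall of Eif2s3x in WT cells did not pass without WT thapsigargin replicate 3 (adjusted p 0.076), without WT DMSO replicate 1 (0.0794) or when the fit held just WT thapsigargin and WT DMSO (0.0752), and its sign turned when Eif2s3y counts were added, as given below. The fall of Eif2s2 in PERK -/- cells did not pass without PERK -/- thapsigargin replicate 1 (0.0542) or 3 (0.183), without PERK -/- DMSO replicate 1 (0.111) or 2 (0.232), or with library sizes alone (0.0539), while Eif2b2 passed there without PERK -/- thapsigargin replicate 1 (0.0498) or DMSO replicate 1 (0.0331), with DESeq2 size factors (0.0439), in DESeq2 (0.0277) and with only the compared groups (0.0352). Eif2b5 also passed there with only the compared groups (0.0483).

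The difference between these responses was tested directly, as the PERK -/- response minus the WT response. It passed for 4 of 8 members, all with a lower value in PERK -/- cells, where 38.1% of all tested genes passed. The largest was that of Eif2b3, -1.58 (SE 0.182, adjusted p 3.06e-08), followed by Eif2s2, -1.12 (SE 0.194), Eif2s1, -1.01 (SE 0.175), and Eif2b1, -0.54 (SE 0.138, adjusted p 0.00223). Eif2s3x, with -0.09, and Eif2b4, with -0.15, did not pass, and their intervals ran from -0.40 to 0.22 and from -0.42 to 0.12. Eif2b2 (-0.31, adjusted p 0.0886) passed without WT thapsigargin replicate 3 (0.0485) or PERK -/- DMSO replicate 1 (0.0418), and Eif2b5 (-0.27, adjusted p 0.104) when WT DMSO replicate 3 (0.047) or WT thapsigargin replicate 2 (0.0299) was left out.

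**Figure D2:**
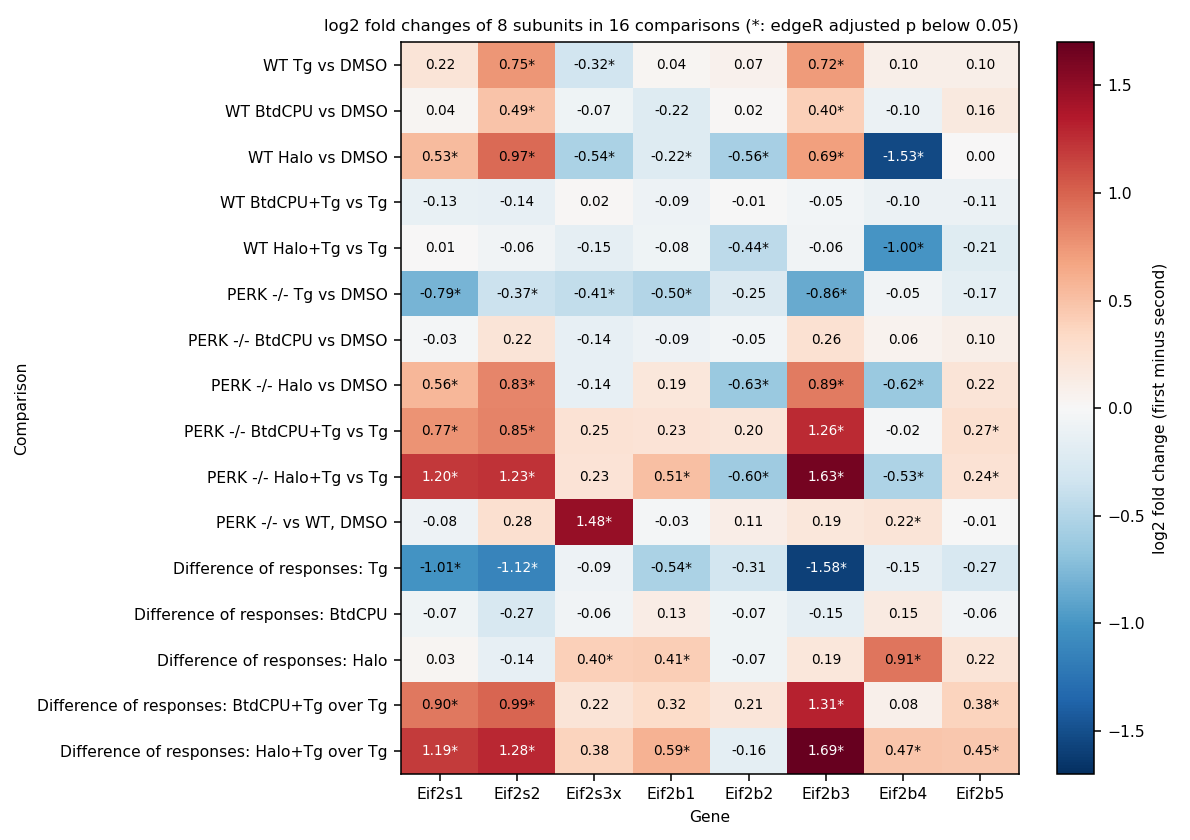
log2 fold change (colour and printed value) of the 8 subunits (horizontal axis) in 16 comparisons (vertical axis); an asterisk marks an edgeR adjusted p below 0.05, and the last 5 comparisons are the PERK -/- response minus the WT response. Eif2s1, Eif2s2 and Eif2b3 are negative for thapsigargin in PERK -/- cells and positive where BtdCPU or halofuginone was added to it in those cells, and Eif2b2 and Eif2b4 are negative in all 4 halofuginone comparisons within a genotype.

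The combined treatments were compared with thapsigargin alone, to see what a compound acting through another kinase changed. BtdCPU with thapsigargin in PERK -/- cells gave higher levels of Eif2s1, Eif2s2, Eif2b3 and Eif2b5 than thapsigargin alone, so that 4 of 8 members passed, all higher, where 35.6% of all tested genes passed. In WT cells none of the 8 passed, where 2.32% of all tested genes passed. There edgeR gave 0 members also at an unadjusted p below 0.05, and DESeq2 gave 0. The comparisons with thapsigargin share its libraries with those against DMSO, so a low PERK -/- thapsigargin group enters both.

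For Eif2b3 the PERK -/- libraries with BtdCPU and thapsigargin stood at 98.7, 95.8 and 94.2 CPM, all above the highest thapsigargin library (46.2 CPM). The rise was 1.26 (SE 0.130, adjusted p 5.42e-09) on the log2 scale. Eif2s1 stood at 169, 154 and 148 CPM, above all thapsigargin libraries and within the range of the DMSO libraries, a rise of 0.77 (SE 0.124, adjusted p 1.15e-05). Eif2s2 stood at 171, 168 and 160 CPM, above all thapsigargin and all DMSO libraries of that genotype, a rise of 0.85 (SE 0.138, adjusted p 1.33e-05).

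Eif2b5, the epsilon subunit that holds the exchange activity, rose less, by 0.27 (SE 0.0925, adjusted p 0.021). Its call was lost without PERK -/- BtdCPU with thapsigargin replicate 3 (0.0561) or PERK -/- thapsigargin replicate 1 (0.0534). Eif2s3x, at 0.25, and Eif2b1, at 0.23, had adjusted p of 0.072 and 0.0715, and passed without BtdCPU with thapsigargin replicate 3 (Eif2s3x, 0.0499) or replicate 2 (Eif2b1, 0.033). Both also passed in DESeq2 (0.0406 and 0.0464), and both and Eif2b2 in a fit of these 6 libraries alone (0.0145, 0.0169 and 0.0304). Eif2b4 had -0.02, with an interval from -0.21 to 0.17.

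Set against DMSO, the mean of PERK -/- BtdCPU with thapsigargin was 0.986 times the DMSO mean for Eif2s1, 1.39 times for Eif2s2 and 1.32 times for Eif2b3. The other members lay between 0.825 times (Eif2b1) and 1.07 times (Eif2b5). These ratios are levels side by side and were not tested.

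The effect of adding BtdCPU differed between genotypes for 4 of 8 members, where 20.8% of all tested genes passed. The difference, PERK -/- minus WT, was 1.31 (SE 0.181, adjusted p 3.29e-06) for Eif2b3, 0.99 (SE 0.194) for Eif2s2, 0.90 (SE 0.175) for Eif2s1 and 0.38 (SE 0.131, adjusted p 0.0371) for Eif2b5. Eif2b5 did not pass without WT BtdCPU with thapsigargin replicate 2 (0.0576), WT thapsigargin replicate 1 (0.0922) or 3 (0.099), PERK -/- BtdCPU with thapsigargin replicate 3 (0.0614) or PERK -/- thapsigargin replicate 1 (0.0648), or without the filter on low counts (0.0789). Eif2b1 (0.32, adjusted p 0.104) passed without WT BtdCPU with thapsigargin replicate 1 (0.0376) or WT thapsigargin replicate 2 (0.00785).

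Halofuginone added to thapsigargin moved more members than BtdCPU did, and in both directions, but it also moved more of all tested genes in each genotype. In PERK -/- cells 7 of 8 passed, 5 higher (Eif2s1, Eif2s2, Eif2b1, Eif2b3, Eif2b5) and 2 lower (Eif2b2, Eif2b4), where 52.7% of all tested genes passed. In WT cells 2 of 8 passed, Eif2b2 and Eif2b4, both lower, where 45.3% of all tested genes passed. Eif2b2 and Eif2b4 were thus low with halofuginone in both genotypes.

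Eif2b3 in PERK -/- cells stood at 123, 128 and 122 CPM with halofuginone and thapsigargin, against 46.2, 40.2 and 33.9 CPM with thapsigargin alone. The gap was the widest of any member in a treatment comparison, 1.63 (SE 0.131, adjusted p 6.25e-12) on the log2 scale, or 3.10-fold. Eif2s1 stood at 202, 229 and 204 CPM and rose by 1.203 (SE 0.125, adjusted p 1.43e-09). Eif2s2 stood at 208, 233 and 208 CPM and rose by 1.23 (SE 0.139, adjusted p 7.75e-09).

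Eif2b1 rose by 0.51 (SE 0.0981, adjusted p 5.07e-05) and reached 56.0, 56.7 and 57.4 CPM, inside the range of the PERK -/- DMSO libraries. Eif2b5 rose by 0.24 (SE 0.0925, adjusted p 0.0271). That call was lost without halofuginone with thapsigargin replicate 2 (0.0851), without thapsigargin replicate 1 (0.0632) and without the filter on low counts (0.0608). Eif2s3x, at 0.23 (adjusted p 0.0693), passed with DESeq2 size factors (0.0453), in DESeq2 (0.0324) and with only the compared groups (0.0141).

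Eif2b4 stood at 62.9, 52.2 and 49.8 CPM in WT thapsigargin libraries and at 28.5, 30.5 and 23.6 CPM once halofuginone was added. No library overlapped, and Eif2b4 fell by 1.00 (SE 0.0940, adjusted p 5.93e-10). In PERK -/- cells it went from 55.3, 60.0 and 57.7 CPM to 39.1, 42.0 and 39.1 CPM, a fall of 0.53 (SE 0.0928, adjusted p 1.63e-05), where Snx17, which overlaps it on the opposite strand, fell by 0.26 (adjusted p 0.00533). Eif2b2, the beta subunit of eIF2B, fell by 0.44 (SE 0.103, adjusted p 0.000768) in WT cells and by 0.60 (SE 0.104, adjusted p 1.07e-05) in PERK -/- cells.

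Libraries with the same replicate number deviated together in both WT comparisons with thapsigargin alone, and the fit with the replicate number as a block added Eif2b5 to the WT halofuginone calls (-0.21, adjusted p 0.00599 with the block and 0.0639 without). Eif2b5 passed there also without WT thapsigargin replicate 2 (0.00926) and with library sizes alone (0.0137).

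The effect of adding halofuginone differed between genotypes for 6 of 8 members, all with a higher value in PERK -/- cells, where 32.7% of all tested genes passed. Eif2b3 differed by 1.69 (SE 0.181, adjusted p 2.09e-08), Eif2s2 by 1.28 (SE 0.194), Eif2s1 by 1.19 (SE 0.175), Eif2b1 by 0.59 (SE 0.138), Eif2b4 by 0.47 (SE 0.131, adjusted p 0.00566) and Eif2b5 by 0.45 (SE 0.131, adjusted p 0.00744). For Eif2b4 the positive difference stands for a smaller fall in PERK -/- cells. Eif2b2, with -0.16, did not pass, and its interval ran from -0.46 to 0.13. Eif2s3x (0.38, adjusted p 0.0552) passed without WT halofuginone with thapsigargin replicate 1 (0.0219), WT thapsigargin replicate 2 (0.0343) or 3 (0.0398), PERK -/- halofuginone with thapsigargin replicate 1 (0.0434) or 3 (0.0456) or PERK -/- thapsigargin replicate 2 (0.0384), with DESeq2 size factors (0.0417), with library sizes alone (0.0436) and in DESeq2 (0.0277).

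Halofuginone alone raised the alpha and beta subunits of eIF2 and the gamma subunit of eIF2B and lowered the beta and delta subunits of eIF2B in both genotypes. In WT cells 7 of 8 members passed, 3 higher and 4 lower, where 68.2% of all tested genes passed. The PERK -/- cells had 5 of 8 passing, 3 higher and 2 lower, where 42.2% of all tested genes passed. The WT share is thus read against a comparison in which most genes passed.

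Eif2b4 carried the deepest fall of any member. It went from 53.3, 51.1 and 49.8 CPM in WT DMSO to 18.1, 18.1 and 16.9 CPM in WT halofuginone, and from 60.3, 57.6 and 61.7 CPM to 39.0, 41.1 and 36.4 CPM in PERK -/- cells. All halofuginone libraries lay below all DMSO libraries, and the WT libraries were the lowest of all. The falls were 1.53 (SE 0.0961, adjusted p 8.59e-15), to 0.345 times the DMSO level, and 0.62 (SE 0.0930, adjusted p 2.06e-06). Snx17, which in GRCm38 overlaps the exons of Eif2b4 by 204 of 2397 bases on the opposite strand, had log2 fold changes of -0.13 (adjusted p 0.138) and -0.12 (adjusted p 0.236) in the same comparisons, and whether the counting used strand is not given in the sources used here.

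Eif2b2 stood at 75.8, 83.7 and 80.6 CPM in WT DMSO and at 52.8, 58.6 and 51.5 CPM in WT halofuginone, and at 76.5, 93.8 and 89.3 CPM and then 53.4, 60.2 and 54.5 CPM in PERK -/- cells. The groups did not overlap in either genotype. Eif2b2 fell by 0.56 (SE 0.104, adjusted p 1.94e-05) and by 0.63 (SE 0.103, adjusted p 1.03e-05). Across the 12 group means the log2 levels of Eif2b2 and Eif2b4 had a Pearson r of 0.737, and within genotype, over 6 groups each, r was 0.993 in WT and 0.942 in PERK -/- cells.

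Eif2s2 rose by 0.97 (SE 0.138, adjusted p 2.88e-07) in WT cells, to 220, 203 and 157 CPM, and by 0.83 (SE 0.138, adjusted p 1.03e-05) in PERK -/- cells, to 219, 207 and 212 CPM. Eif2s1 rose by 0.53 (SE 0.124) and 0.56 (SE 0.124), and Eif2b3 by 0.69 (SE 0.128) and 0.89 (SE 0.128). WT halofuginone replicate 3 was the lowest of its group for Eif2s1, Eif2s2 and Eif2b3, at 210, 157 and 77.6 CPM, still above all WT DMSO libraries. Without it these 3 calls held.

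Eif2s3x fell by 0.54 (SE 0.110, adjusted p 7.56e-05) in WT cells and had -0.14 (SE 0.106, adjusted p 0.314) in PERK -/- cells. Eif2b1 had a WT fall of 0.22 (SE 0.0979, adjusted p 0.0437) with overlapping groups, lost without WT halofuginone replicate 3 (0.113) or WT DMSO replicate 1 (0.206) or 3 (0.151), with DESeq2 size factors (0.0687), in DESeq2 (0.0629), without the filter on low counts (0.0579) and with only the compared groups (0.18), and its value moved to -0.34 without WT DMSO replicate 2 and to -0.35 with library sizes alone. Eif2b5 had 0.00 in WT cells, with an interval from -0.19 to 0.19, and 0.22 in PERK -/- cells (adjusted p 0.058), which passed without PERK -/- halofuginone replicate 1 (0.0366), with library sizes alone (0.045) and in DESeq2 (0.0421).

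The responses to halofuginone differed between genotypes for 3 of 8 members, all with a higher value in PERK -/- cells, where 35% of all tested genes passed. The difference was 0.91 (SE 0.132, adjusted p 4.38e-06) for Eif2b4, 0.41 (SE 0.138, adjusted p 0.0201) for Eif2b1 and 0.40 (SE 0.153, adjusted p 0.0406) for Eif2s3x. In a fit of the compared groups alone, just Eif2b4 passed (Eif2b1 0.0602, Eif2s3x 0.0929). Eif2b1 did not pass without WT DMSO replicate 1 (0.0699) or 3 (0.051) or PERK -/- DMSO replicate 1 (0.0568). Eif2s3x did not pass without WT halofuginone replicate 3 (0.0996), WT DMSO replicate 1 (0.107) or 3 (0.0589), PERK -/- halofuginone replicate 1 (0.0512) or 2 (0.0774) or PERK -/- DMSO replicate 2 (0.08), or without the filter (0.0596), while Eif2b5 (0.22, adjusted p 0.206) passed with library sizes alone (0.022).

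BtdCPU alone was compared with DMSO in each genotype. In WT cells Eif2s2 and Eif2b3 rose, 2 of 8 members, where 22.2% of all tested genes passed. Eif2s2 went from 106, 99.98 and 89.7 CPM to 156, 128 and 131 CPM, and Eif2b3 from 66.1, 62.5 and 63.0 CPM to 91.6, 77.5 and 84.7 CPM. The groups did not overlap for either gene, and the rises were 0.49 (SE 0.137, adjusted p 0.00955) and 0.40 (SE 0.128, adjusted p 0.021). Both calls were lost without WT BtdCPU replicate 1 (0.0915 and 0.126) and in a fit of the compared groups alone (0.0531 and 0.0603). Eif2b3 was lost also without WT BtdCPU replicate 3 (0.0637), WT DMSO replicate 2 (0.073) or 3 (0.0505) and with library sizes alone (0.0702), and Eif2b1 (-0.22, adjusted p 0.107) passed without WT DMSO replicate 2 (0.0221) and with library sizes alone (0.022).

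With BtdCPU no member passed in PERK -/- cells, where 3.59% of all tested genes passed, and the count was 0 also at an unadjusted p below 0.05 and in DESeq2. Eif2s2 had 0.22, with an interval from -0.06 to 0.50, and Eif2b3 had 0.26, with an interval from -0.00 to 0.52. The difference between genotypes passed for no member, where 0.199% of all tested genes passed, again 0 at an unadjusted p below 0.05 and in DESeq2. Its value was -0.27 for Eif2s2, with an interval from -0.67 to 0.12, and -0.15 for Eif2b3, with an interval from -0.52 to 0.22, so both intervals include 0 and also differences as large as the WT rise of either gene.

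In DMSO the genotypes differed for 2 of 8 members, Eif2s3x and Eif2b4, both higher in PERK -/- cells, where 49.5% of all tested genes passed. Eif2b4 was higher by 0.22 (SE 0.0925, adjusted p 0.0485), at 60.3, 57.6 and 61.7 against 53.3, 51.1 and 49.8 CPM. Those libraries did not overlap, but the call was lost when any 1 of the 6 libraries was left out (adjusted p 0.0558 to 0.155), with DESeq2 size factors (0.0586), without the filter (0.36) and with only the compared groups (0.0663). Eif2s2 (0.28, adjusted p 0.0953) passed without PERK -/- DMSO replicate 3 (0.033). The other 5 members lay between -0.08 (Eif2s1) and 0.19 (Eif2b3).

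Eif2s3x, the X-linked gene of the gamma subunit, which binds GTP and the initiator tRNA, was at 26.2, 22.3 and 24.5 CPM in WT DMSO and at 71.4, 65.1 and 66.3 CPM in PERK -/- DMSO. The PERK -/- libraries were 2.78 times as high by their means, a log2 difference of 1.48 (SE 0.109, adjusted p 7.46e-13). In every treatment all PERK -/- libraries were above all WT libraries. The WT cells, however, also read Eif2s3y, at 84.0, 104 and 59.5 CPM in DMSO, and the 18 PERK -/- libraries together held 4 counts of it beside 40084 counts of Eif2s3x. Taking 3 counts in a library as the floor, Eif2s3y was at least 998-fold higher in WT than in PERK -/- DMSO libraries.

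The sum of both copies in CPM, not divided by length, was lower in PERK -/- than in WT cells. In DMSO it was 67.6 ± 3.34 against 107 ± 21.4 CPM (SD, n = 3), a ratio of 0.633. With the counts summed, an alternative chosen after the counts of Eif2s3y had been seen, the log2 difference was -0.66 (SE 0.142, adjusted p 0.000259), so the direction turned. The WT falls of Eif2s3x were not seen in the sum, which had 0.07 (SE 0.141, adjusted p 0.722) with thapsigargin and 0.09 (SE 0.141, adjusted p 0.587) with halofuginone. The fall with thapsigargin in PERK -/- cells stayed called, at -0.41 (SE 0.143, adjusted p 0.0291). For halofuginone the difference between genotypes was -0.23 (adjusted p 0.402) in the sum, against 0.40 for Eif2s3x alone. For thapsigargin it was -0.48 (SE 0.201, adjusted p 0.0589) in the sum, against -0.09 for Eif2s3x alone, and neither passed.

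Of the summed CPM, not divided by length, the X-linked copy made up 23.5% in WT DMSO libraries, 17.5% with thapsigargin and 14.9% with halofuginone, by the means of 3 libraries. In PERK -/- libraries it made up at least 99.8%. Eif2s3x has 3720 exon bases and Eif2s3y 1836, so shares and ratios of the sum depend on length. Per kilobase of exon, WT DMSO libraries held 6.54 CPM of Eif2s3x and 44.9 CPM of Eif2s3y. PERK -/- DMSO libraries held 18.2 CPM of Eif2s3x per kilobase. The coding sequences of both copies, 1416 bases each in the GRCm38 transcripts, were identical at 86.3% of positions, with a longest identical run of 34 bases and at least 8 differences in every window of 100 bases.

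**Figure D3:**
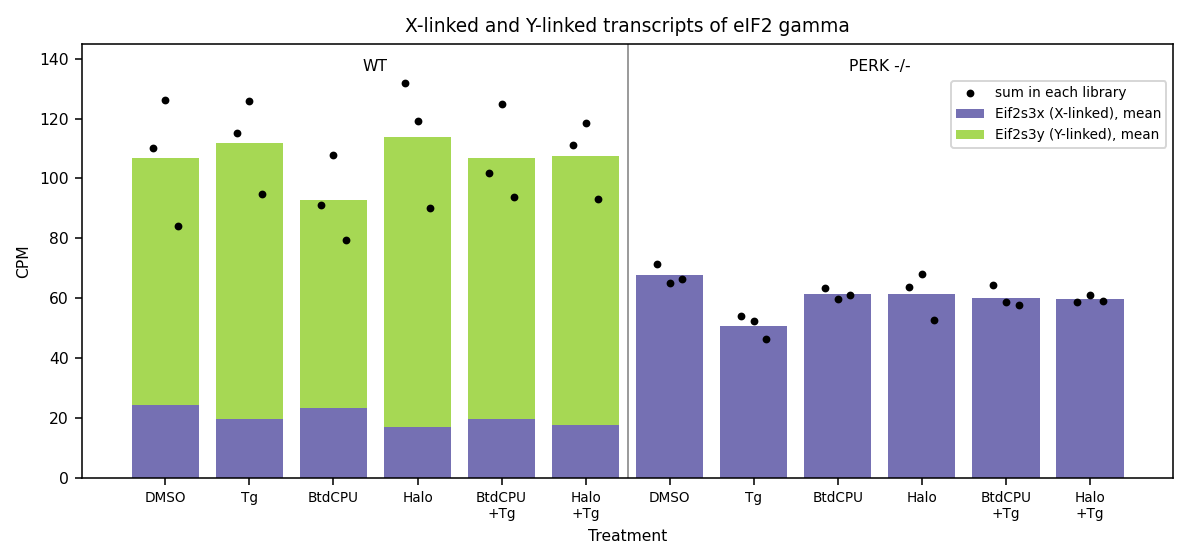
Mean CPM of Eif2s3x and, stacked on it, Eif2s3y (vertical axis, from 0) by treatment (horizontal axis), WT on the left and PERK -/- on the right, with the sum in each of the 3 libraries as points. WT cells read mainly the Y-linked copy, and PERK -/- cells almost none of it. The sum in DMSO, not divided by length, is 107 CPM in WT and 67.6 CPM in PERK -/- cells.

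The profiles of the members were next set against each other over the 12 group means of log2 CPM. These are descriptions, since the groups share cells and treatments. Eif2s2 and Eif2b3 had a Pearson r of 0.937, Eif2s1 and Eif2b3 of 0.891, and Eif2s1 and Eif2s2 of 0.815. Within genotype, over 6 groups each, these pairs had 0.932, 0.614 and 0.827 in WT and 0.969, 0.974 and 0.927 in PERK -/- cells. Over the 12 groups, Eif2b2 and Eif2b4 were negative with each of these 3 genes, from -0.635 (Eif2s2 with Eif2b2) to -0.397 (Eif2b3 with Eif2b4). They were negative within each genotype too, in WT cells from -0.852 (Eif2s1 with Eif2b4) to -0.31 (Eif2b3 with Eif2b2). Eif2b1 had 0.721 with Eif2s1, while within genotype that value was -0.375 in WT and 0.921 in PERK -/- cells, over 6 groups each.

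**Figure D4:**
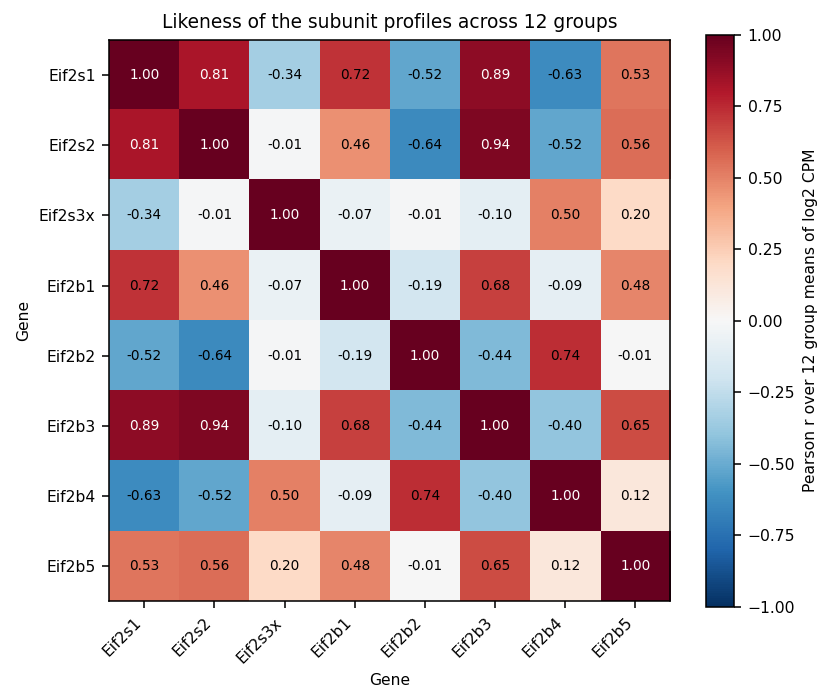
Pearson r (colour and printed value) between the profiles of each pair of subunits, on both axes, over 12 group means of log2 CPM. Eif2s1, Eif2s2 and Eif2b3 form the positive block, with r from 0.815 to 0.937, and Eif2b2 and Eif2b4 are positive with each other and negative with those 3.

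Over the same 12 group means, the genes most like each member were sought among 10220 genes. Eif2s1 was most like Cct6a (r of 0.982), a subunit of the chaperonin that folds actin and tubulin, and Mphosph10 (0.967) and Mak16 (0.96). Eif2s2 was most like Zrsr2 (0.965), Eif2b3 like Tmem11 (0.981), and Eif2b2 like Sf3a2 (0.965), a splicing factor. Eif2b4 was most like Tprn (0.986), and Eif2s3x like Acp1 (0.995). Both genotypes enter these values, and Eif2s3x was higher in every PERK -/- group than in every WT group. A difference between genotypes alone can therefore give a high r, and r within genotype is not given here for these genes. Eif2b1 and Eif2b5 reached only 0.882 (Aimp2) and 0.919 (Foxk1) with their closest gene.

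Other initiation factor genes were measured beside the subunits. Of 14 partners of eIF2 in initiation, all tested, thapsigargin raised 5 and lowered 3 in WT cells and raised none and lowered 8 in PERK -/- cells, with medians of 0.04 and -0.33, where 47.6% and 27.9% of all tested genes passed. In PERK -/- cells the addition of BtdCPU to thapsigargin raised 7 and lowered 1 (median of 0.35), and the addition of halofuginone raised 8 and lowered 2 (median of 0.48), where 35.6% and 52.7% of all tested genes passed. All tested genes had medians of -0.04 and -0.01 in these last comparisons.

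Eif5, the factor that triggers GTP hydrolysis on eIF2, stood at 385, 378 and 338 CPM in PERK -/- DMSO, at 279, 266 and 232 CPM in thapsigargin and at 521, 494 and 508 CPM in BtdCPU with thapsigargin. These 3 groups did not overlap, and Eif5 fell by 0.50 (SE 0.103, adjusted p 0.000315) and then stood higher by 0.97 (SE 0.103, adjusted p 1.06e-08). Denr, whose product works with that of Mcts1 in reinitiation and ribosome recycling, fell by 0.83 (SE 0.127) with thapsigargin in PERK -/- cells and had 0.12 (adjusted p 0.474) in WT cells. Abce1, which splits ribosomes for reuse, fell by 0.66 (SE 0.0900) in PERK -/- cells and rose by 0.30 (SE 0.0897) in WT cells. Cdc123, whose product assembles the eIF2 complex, went the other way, with a fall of 0.42 (SE 0.0852) in WT cells and a higher value that did not pass, 0.06 (adjusted p 0.675), in PERK -/- cells.

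Of 14 eIF3 genes, thapsigargin raised 6 and lowered 1 in WT cells and lowered 6 in PERK -/- cells, with medians of 0.10 and -0.27, where 47.6% and 27.9% of all tested genes passed. The addition of BtdCPU or halofuginone to thapsigargin in PERK -/- cells raised 7 and 8 of them and lowered 0 and 3, where 35.6% and 52.7% of all tested genes passed. Eif3j1 was the called eIF3 gene with the lowest value for thapsigargin in PERK -/- cells, -0.92, and with the highest value where halofuginone was added, 1.92. Of 13 genes of eIF4 and other factors, thapsigargin raised 2 and lowered 7 in WT cells and lowered 9 in PERK -/- cells, with medians of -0.22 and -0.29, beside the same shares of 47.6% and 27.9% over all tested genes. No difference between lists was tested.

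Readouts of the ISR, 6 transcripts among them Ddit3 and Atf4, were read in the same libraries. Thapsigargin raised all 6 in WT cells (median of 3.01) and 4 in PERK -/- cells (median of 0.76), where 47.6% and 27.9% of all tested genes passed. Over thapsigargin alone, BtdCPU raised all 6 in PERK -/- cells and halofuginone raised 5, where 35.6% and 52.7% of all tested genes passed. In WT cells BtdCPU over thapsigargin moved none and halofuginone raised 1 and lowered 3, where 2.32% and 45.3% passed. Against DMSO, BtdCPU alone raised all 6 in WT and in PERK -/- cells, where 22.2% and 3.59% of all tested genes passed. No member passed with BtdCPU alone in PERK -/- cells. Halofuginone alone also raised all 6 in both, where 68.2% and 42.2% passed. In DMSO, 4 were higher in PERK -/- than in WT cells, where 49.5% passed. Whether the subunit transcripts follow from this response was not tested.

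**Figure D5:**
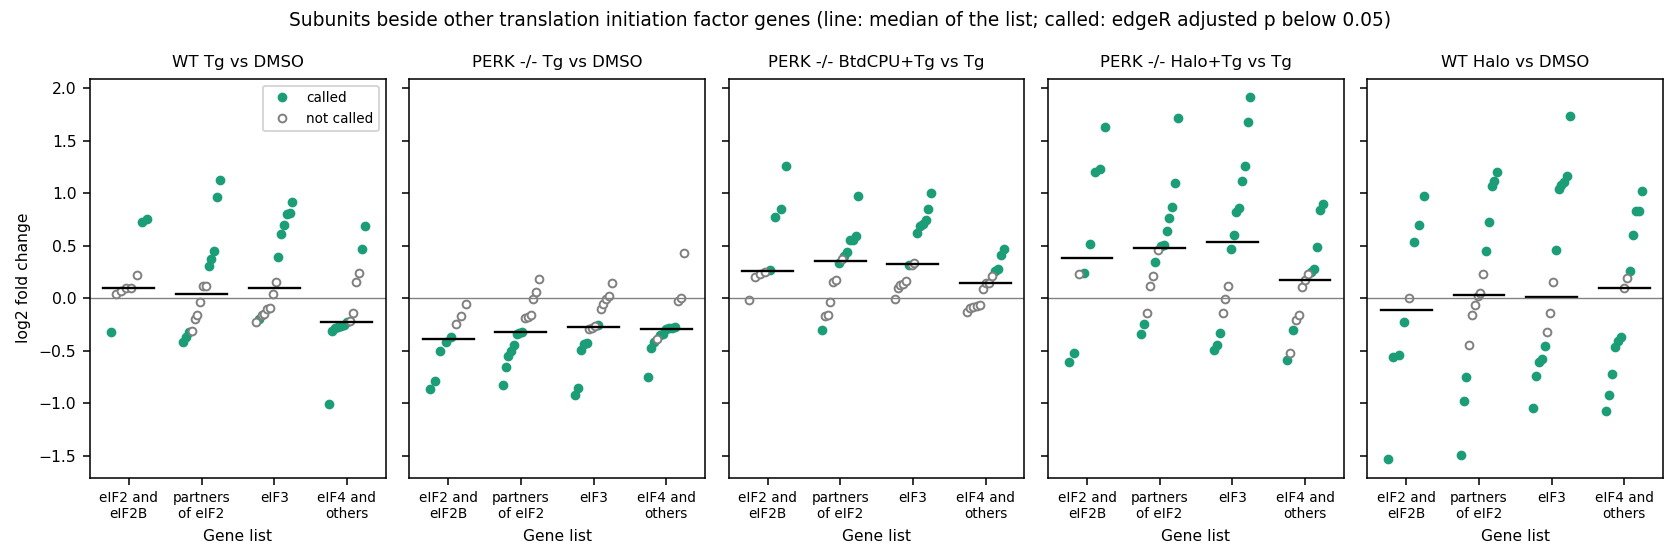
log2 fold change (vertical axis) of each gene in 4 lists (horizontal axis) for 5 comparisons (panels), filled where the edgeR adjusted p was below 0.05, with a line at the median of the list. In PERK -/- thapsigargin all 4 medians lie below 0, from -0.39 for the subunits to -0.27 for eIF3, and they lie above 0 where BtdCPU or halofuginone was added.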

How the data were processed

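The deposited values are estimated counts for each gene, unscaled. A value of 0.025 stands for 0, and among the remaining values 2.69% have a fraction. The submitters' processing notes name the build GRCm39 and DESeq with no role, and the aligner and counting tool are not given in the sources used here. Strand-specific libraries are named in the labels' protocols.

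Left out were 27 entries named by a date number (0.206% to 0.278% of a library's counts). Repeated symbols were summed and counts rounded. Genes were kept by filterByExpr, scaled by TMM and tested with edgeR 4.0.16 in R 4.3.3 (quasi-likelihood, robust), with 12 group means in 1 fit of 36 libraries and 24 residual degrees of freedom. Benjamini-Hochberg adjustment ran over 16065 genes within each of 16 comparisons, and a gene passed below 0.05. The SE was derived from the F statistic, and intervals cover 95%. The script was tested on simulated data.

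The members and the gene lists were chosen with earlier results of these data known. All 8 members are named. Partners of eIF2 may be named, as may the called gene with the highest or lowest value of the eIF3 and eIF4 lists, and the 3 genes most like a member. Promoters came from RefSeq, and lengths and overlaps from GENCODE, both for GRCm38. Pairs of libraries within a group differed by a chi-square of 9.06 to 116 per degree of freedom. Same-numbered libraries were checked for shared deviations: every correlation was over 0.1 only for WT BtdCPU with thapsigargin and WT halofuginone with thapsigargin, each against thapsigargin (lowest 0.159 and 0.162). The alternatives tried were DESeq2 size factors, library sizes alone, DESeq2 1.42.0, no filter, only the compared groups, a replicate block within genotype, leaving out each library and, chosen after seeing the data, the summed counts of Eif2s3x and Eif2s3y. The floor of 3 counts covers counting error only.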

Additional observations from a re-analysis of the deposited data

Results flagged for a closer look

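The response of PERK -/- cells minus that of WT cells passed the test (edgeR adjusted p below 0.05) for these members. For thapsigargin the difference was -1.01 for Eif2s1, -1.12 for Eif2s2, -0.54 for Eif2b1 and -1.58 for Eif2b3. For halofuginone it was 0.40 for Eif2s3x, 0.41 for Eif2b1 and 0.91 for Eif2b4. For BtdCPU added to thapsigargin it was 0.90 for Eif2s1, 0.99 for Eif2s2, 1.31 for Eif2b3 and 0.38 for Eif2b5. For halofuginone added to thapsigargin it was 1.19 for Eif2s1, 1.28 for Eif2s2, 0.59 for Eif2b1, 1.69 for Eif2b3, 0.47 for Eif2b4 and 0.45 for Eif2b5. The thapsigargin difference and those for the added compounds share the thapsigargin libraries, so their values are not independent of each other. No member's level was tested for single outlying libraries, since each group holds 3.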

How the results depend on the processing

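Of 1792 values of the 128 member results under other settings, 1677 kept their call (72 of these, called in neither setting, changed sign), 56 lost the call (38 of them with a library left out), 55 gained it (20 with a library left out), and 4 called values of Eif2s3x changed sign, all with Eif2s3y counts added (0.0668 for WT thapsigargin, 0.0897 for WT halofuginone, -0.66 between genotypes in DMSO and -0.23 for the halofuginone difference between genotypes). The number of members called for WT BtdCPU was 2, and 0 with only the compared groups, 4 with the replicate block and 0 to 2 with a library left out. For PERK -/- against WT in DMSO it was 2, and 1 with DESeq2 size factors, without the filter, with only the compared groups or with the replicate block, and 1 to 2 with a library left out. For the halofuginone difference between genotypes it was 3, and 1 with only the compared groups and 1 to 3 with a library left out. For BtdCPU added to thapsigargin in PERK -/- cells it was 4, and 7 with only the compared groups. The causes were not tested. The share of all tested genes called under each other setting is not given here, for these counts or those below. A change particular to the members can therefore not be told from a general change in calls. Library sizes alone moved the median of all tested genes by -0.13 for WT halofuginone and by 0.10 for its difference between genotypes.

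The replicate block within genotype moved the number of members called from 3 to 4 for WT thapsigargin, from 5 to 7 for PERK -/- thapsigargin, from 4 to 6 for the thapsigargin difference and from 4 to 6 for BtdCPU added to thapsigargin in PERK -/- cells. In the other comparisons not named here it moved it by at most 1, and it took the DMSO difference of Eif2b4 between genotypes to 0.14. For the WT comparisons in which numbers paired the libraries, it changed no call but that of Eif2b5. The lowest count of any member in a library was 465 (Eif2s3x).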
